A study of Arabidopsis thaliana with 12 samples.

Results

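The 60 named genes with the brightest probe in dark-kept wild-type Arabidopsis thaliana were described here, with their levels in WT and in the prors1 mutant. They were chosen by the deposited intensity averaged over the 6 WT columns, among probes that the platform annotation assigns to a single gene, with the brightest probe kept per gene. PSAN, PSBW, PSBY, LHB1B2, PRK and AT4G17070 were left out by the rule, which left 685 genes to rank. The WT values below therefore chose the genes and are a description. Intensity also depends on the probe itself and was not set per transcript length, so the ranking orders probe brightness and does not order transcripts by abundance.

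Both groups were Columbia plants darkened for a night, and their RNA was hybridised to 1-colour arrays, deposited as 3439 probes. WT dark carried no named mutation, and prors1 dark was a mutant affected in the prolyl-tRNA synthetase PRORS1. The groups were read from the titles, because the source label describes all 12 samples as WT. Allele, tissue and plant age are not named in the labels, and markers of seed, pollen and root had 0 genes with a probe of their own. The 6 columns of each group were taken as 3 arrays, since columns 1 and 2, 3 and 4, and 5 and 6 behaved as repeat readings. No label gives this pairing, so the arrays are inferred from the values. An array value below is the mean of such a pair of columns. Over the 60 genes, repeat columns differed by a median log2 value of 0.101 to 0.130 in WT and of 0.0797 to 0.0962 in prors1. Columns of different arrays differed by 0.270 to 0.533 and by 0.212 to 0.458. No label says whether arrays came from separate plants; if they did not, the p-values reflect technical spread alone.

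Prolyl-tRNA synthetase loads proline onto its transfer RNA, and the PRORS1 enzyme of Arabidopsis serves both plastids and mitochondria. Most plastid proteins are encoded in the nucleus, made in the cytosol and imported, while a small set is translated on plastid ribosomes. Transcripts for photosynthesis depend strongly on light, and a night in darkness removes that input. Many of the genes below are listed by locus tag alone. Where a role is given for such a gene, it is background from the general Arabidopsis annotation and not a result of these data.

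The deposited scale is linear, starts at 0 and ends at 100, and what it is relative to is unknown. Total intensity per column was 2312 to 2840 in WT and 2632 to 3456 in prors1, and the median of values above 0 was 0.224 to 0.289 and 0.407 to 0.520. Array 2 had the highest total in both groups. Of the 60 genes, 42 were brightest on array 2 in WT and 38 in prors1. None of the 60 reached the ceiling in any column, and 1 gene, AT3G49740, was listed at 0 in any column, against 145 of the other 625 genes. The 60 were picked by high WT values, so this difference is a description. All 60 passed the filter on low values, which asked for at least 4 of 6 columns above 0 in each group.

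The WT intensities were strongly graded. Above 10 lay 6 genes, 18 lay between 2 and 10, 31 between 1 and 2, and 5 under 1. The first gene exceeded the 60th by 62.5 times. The median WT intensity of the 60 was 1.79, against 0.181 for the other 625 genes. In prors1 the medians were 1.88 and 0.374, so the 60 stood closer to the rest there. Picking the 60 by WT values favours such a narrowing, and the median over all probes above 0 was also higher in prors1. The named genes are a small part of the array: 334 probes were brighter in WT than the 60th gene, and 275 of the probes at least that bright were not among the 60, most of them without a single annotated gene.

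**Figure D1:**
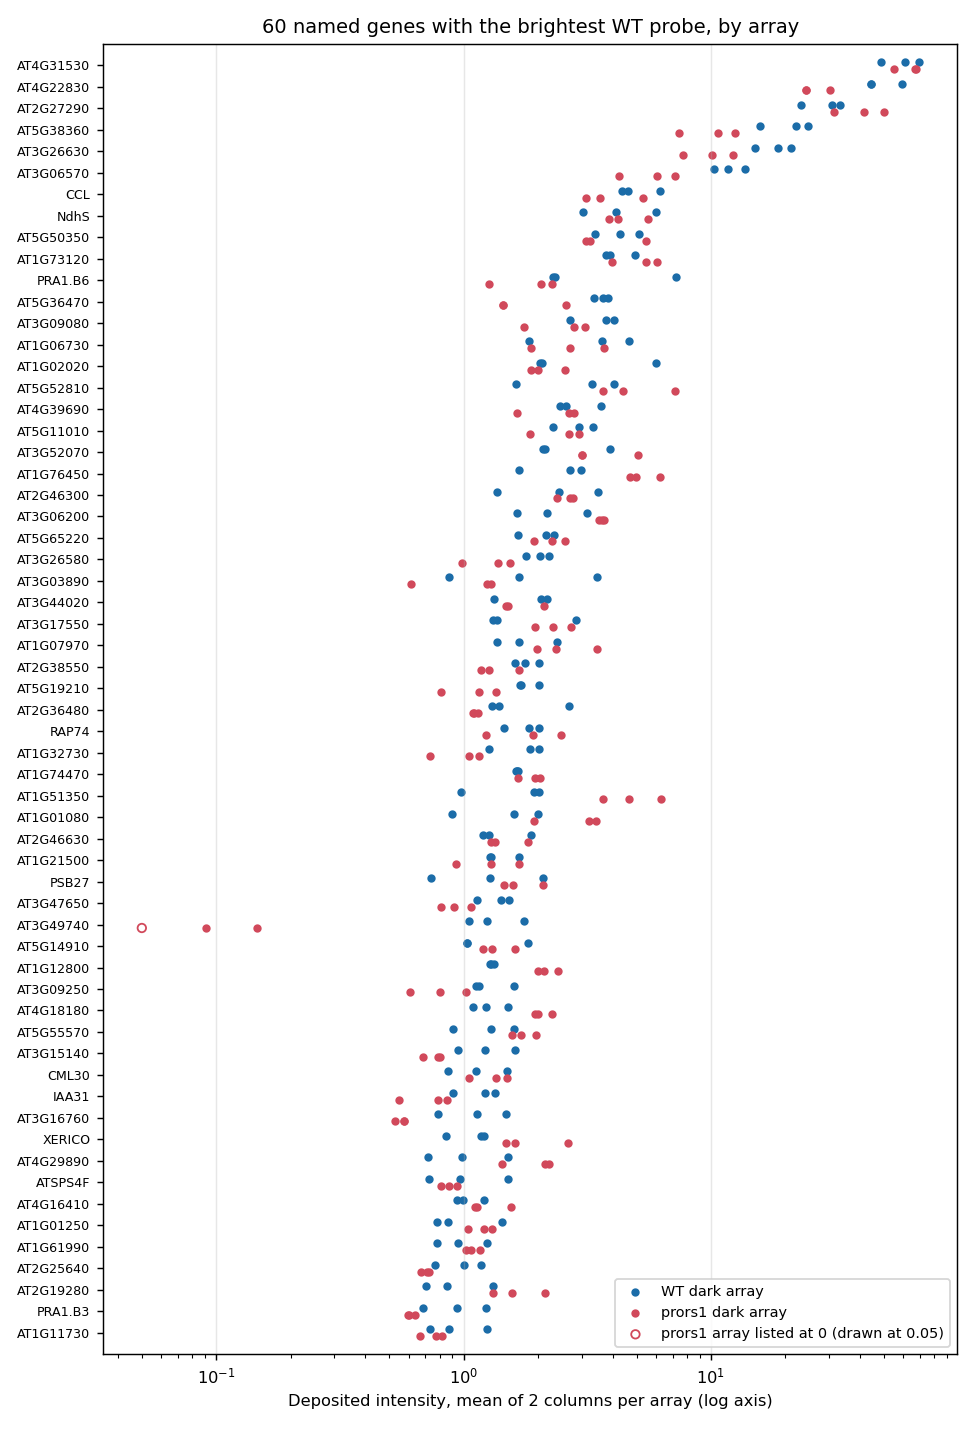
Deposited intensity of each of the 60 genes on each array (log axis, mean of 2 columns), in order of WT brightness, with WT arrays in blue and prors1 arrays in red. The levels fall from 59.5 for AT4G31530 to 0.952 for AT1G11730 in WT, and AT3G49740 is the only gene whose prors1 arrays lie far below the rest, with 1 array listed at 0 and drawn at 0.05.

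At the top stood 6 genes well apart from the others, and 4 of them were dimmer on every prors1 array than on any WT array. Of all probes 4.86% lay wholly below WT in this way, and of the 275 other probes as bright 30.5%, and the 6 genes were picked by their high WT values. AT4G31530, which encodes a protein of the NAD(P)-binding Rossmann-fold family, read 60.6, 69.1 and 48.7 on the WT arrays and 54.9, 66.8 and 67.4 on the prors1 arrays. The groups overlapped, and it was the brightest gene of both, at 59.5 ± 10 (SD, n = 3) and 63.0 ± 7.0. AT4G22830 read 44.2, 59.3 and 44.5 in WT and 24.1, 30.4 and 24.2 in prors1, 1.88 times lower on average. Its arrays did not overlap. AT2G27290 read 33.2, 23.0 and 30.8 in WT and 31.6, 50.2 and 41.5 in prors1. Both overlap and a higher prors1 mean (41.1 ± 9.3 against 29.0 ± 5.3) were seen.

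AT5G38360, of the alpha/beta-hydrolase family, read 15.8, 22.2 and 24.6 in WT and 7.42, 12.5 and 10.7 in prors1. AT3G26630, a pentatricopeptide repeat (PPR) protein of the family that binds organelle RNA, read 15.1, 18.7 and 21.1 in WT and 7.69, 10.1 and 12.3 in prors1. AT3G06570, a kelch-repeat protein, read 11.7, 13.7 and 10.3 in WT and 4.23, 7.14 and 6.03 in prors1. All 3 were lower on each prors1 array than on each WT array, by 2.05, 1.82 and 2.05 times on average. In bulk RNA such as this, fewer cells of a type and less RNA per cell cannot be told apart.

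These 6 genes held 7.58% ± 0.24 (SD, n = 3) of the summed intensity of all probes in WT and 5.38% ± 0.60 in prors1. The other 54 genes held 4.30% ± 0.18 and 3.78% ± 0.24. Neither pair of ranges overlapped between groups. The WT values chose the genes, so these shares are given as a description. The 275 other probes at least as bright in WT went from 58.5% ± 0.82 to 42.7% ± 3.9 of the total. In absolute terms the 54 genes summed to 107.8 ± 17 in WT and 110.3 ± 18 in prors1, and the first 6 to 188.9 ± 15 and 156.4 ± 24. The 6 brightest were thus dimmer in sum, while the other 54 were about level.

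**Figure D2:**
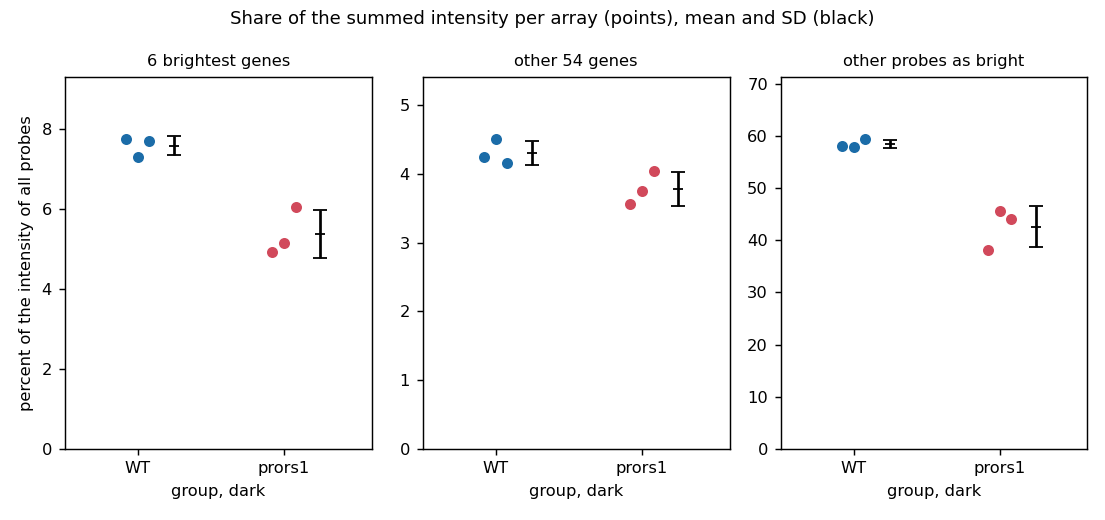
Percent of the summed intensity of all probes held by the 6 brightest genes, by the other 54 and by the 275 other probes at least as bright in WT, per array (points, WT blue, prors1 red), with the mean and SD in black. All 3 sets hold a smaller share on each prors1 array than on any WT array, and the 275 probes drop from 58.5% to 42.7%.

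The order of the genes was partly shared. Of the 60, 43 were also among the 60 brightest genes of prors1, and the first 5 of WT filled the first 5 places in prors1 too. The 17 that left the prors1 group ranked from 62 (AT4G16410) to 578 (AT3G49740) there. In their place came genes such as AT2G46220, ranked 63 in WT and 6 in prors1, and AT4G19900, ranked 61 and 7, with prors1 intensities of 8.66 ± 2.2 and 7.38 ± 3.1 (SD, n = 3). These lay just outside the 60: AT4G19900, AT4G07670 and AT2G46220 had WT intensities of 0.928, 0.925 and 0.910. Just inside lay AT2G19280, PRA1.B3 and AT1G11730 at 0.959, 0.954 and 0.952. The cut at 60 genes therefore separates nearly equal values.

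**Figure D3:**
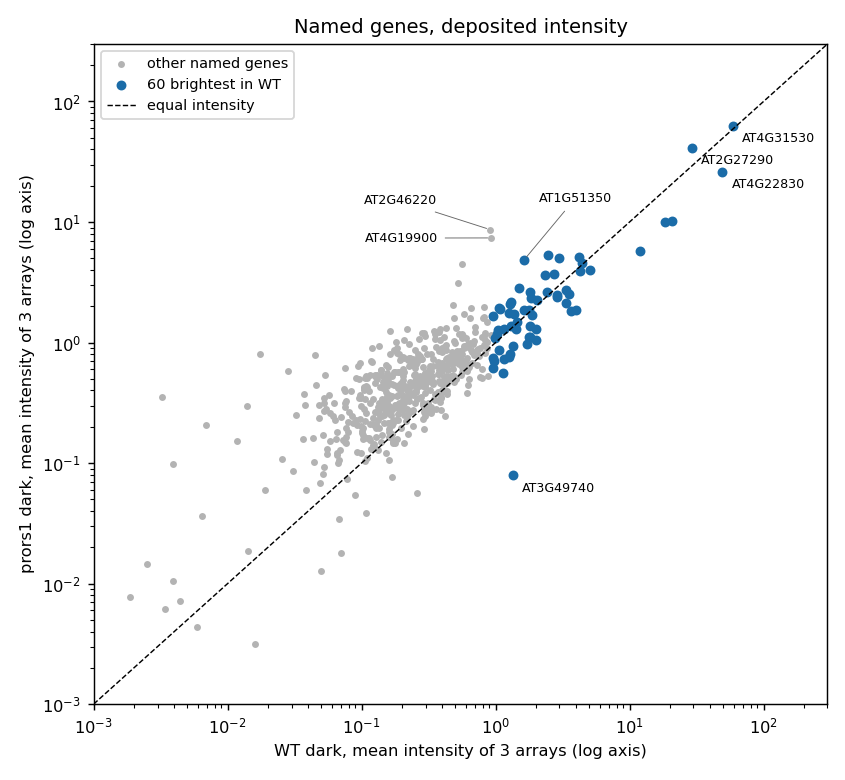
Mean deposited intensity in prors1 against WT (3 arrays each, log axes) for the 60 genes (blue) and 536 of the other named genes (grey), with a line of equal intensity; 89 genes with a mean under 0.001 in either group are not drawn. The 60 genes lie on both sides of the line while most dimmer genes lie above it, and AT2G46220 and AT4G19900 sit just left of the WT cut with prors1 means of 8.66 and 7.38.

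As deposited, 29 of the 60 genes had a higher and 31 a lower mean in prors1. On 7 genes (11.7%) every prors1 array was above every WT array, and on 18 (30%) every one was below. Over all 3439 probes those shares were 46% above and 4.86% below. Over the 275 other probes at least as bright in WT they were 10.9% and 30.5%, close to the shares of the 60. Over all tested probes the as-deposited median log2 fold of prors1 over WT was 0.77, and that of the 60 was -0.13.

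After quantile normalization, 15 of the 60 genes passed limma's test between prors1 and WT at an adjusted p under 0.05, 1 higher and 14 lower. Over all 2908 tested probes 764 passed (26.3%), 12.8% higher and 13.5% lower. Over the 275 other probes as bright, 36.4% passed, 8% higher and 28.4% lower. The share called among the 60, 25%, was near the overall background and is no result about them as a group. At an unadjusted p under 0.05 stood 28 of the 60, against 1205 of the 2908 tested probes and 146 of the 275 equally bright ones. The median log2 fold of the 60 was -0.32, against -0.06 over all tested probes and -0.50 over the equally bright ones.

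The counts of calls differed with the values that chose the genes. With 60 genes chosen by the 6 prors1 columns, 12 were called higher and 2 lower, and with all 12 columns 9 and 6. With genes chosen on WT columns 1 and 2 alone and the fold taken against WT columns 3 to 6, so that no value served both ends, 3 were called higher and 7 lower. That fit had 2 WT arrays and called 16.7% of all tested probes, 9.04% higher and 7.67% lower. The medians of the log2 folds were 0.32, 0.0078 and -0.13.

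**Figure D4:**
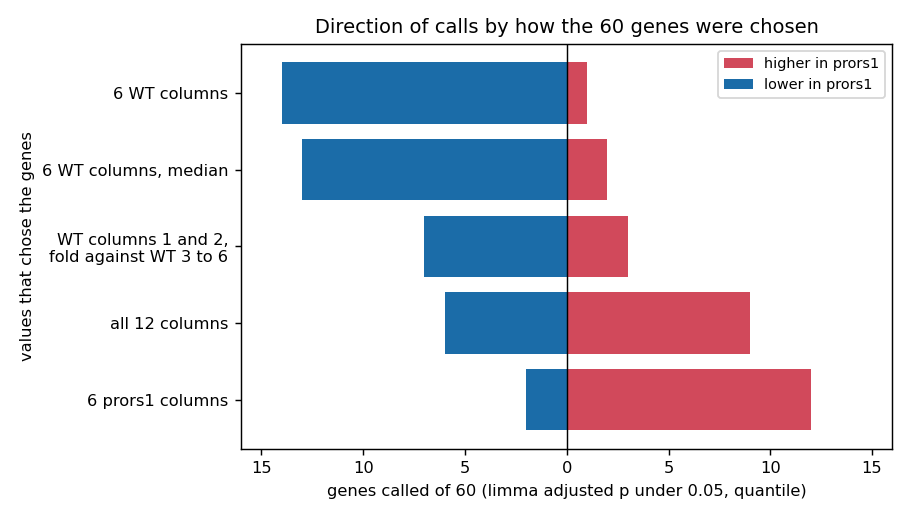
Number of genes called higher (red, to the right) or lower (blue, to the left) in prors1 of 60, by the columns whose intensity chose the genes. The bars turn from 14 lower and 1 higher with WT columns to 2 lower and 12 higher with prors1 columns.

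Scaling mattered as much. As deposited 4 genes were called higher and 7 lower, while 45.8% of all tested probes were called, 43% higher and 2.82% lower. Of the 275 equally bright other probes 27.3% were called, 8.73% higher and 18.5% lower. Those probes were picked by WT values that also enter the fold, so their direction is a description. With cyclic loess 3 genes were higher and 11 lower, against 24.4% of all tested probes called (12.9% and 11.5%) and 29.8% of the equally bright ones (8.36% and 21.5%). Median scaling called 0 genes higher and 34 lower, against 29.2% of all tested probes (11.5% and 17.7%) and 73.1% of the equally bright ones (3.64% and 69.5%). The fold was below 0 under each of these 4 scalings for 31 genes and above 0 for 4, while the sign differed between scalings for 25. Only AT3G06570, AT5G36470, AT3G49740 and AT3G16760 were called under all 4, each lower, and AT1G51350 was called higher under 3, with a log2 fold of 0.71 (limma adjusted p = 0.130) under median scaling.

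**Figure D5:**
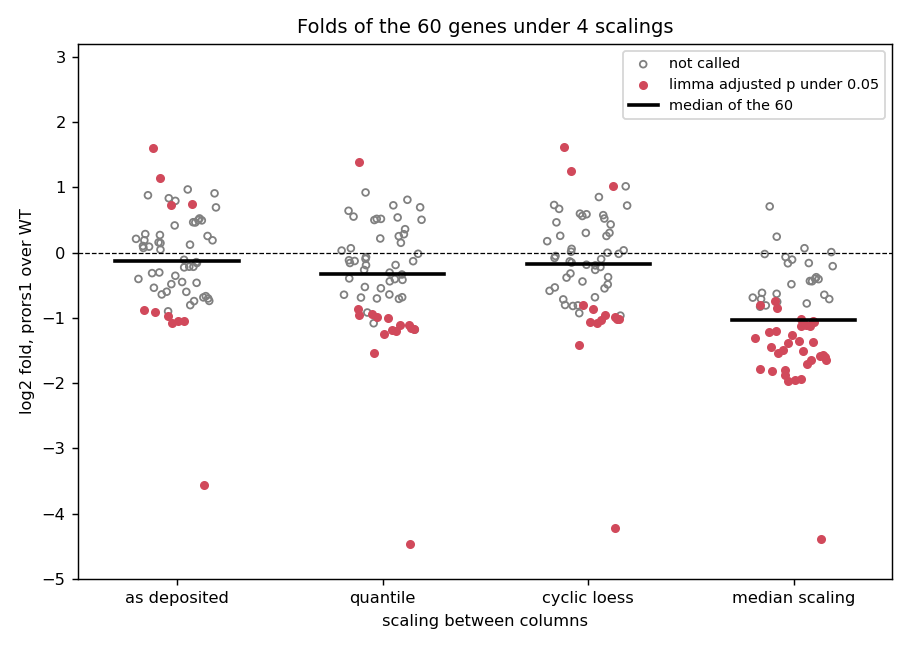
Log2 fold of prors1 over WT of the 60 genes under each scaling of the columns, with genes at a limma adjusted p under 0.05 in red and the median as a bar. The medians are -0.13 as deposited, -0.32 with quantile normalization, -0.17 with cyclic loess and -1.03 with median scaling, and AT3G49740 is the lowest point in each.

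Of the 60 genes, 11 were put by hand in a group for RNA handling and gene regulation, with WT intensities from 0.959 to 18.3. By quantile normalization 0 rose and 4 fell, with a median log2 fold of -0.27, where 13.5% of all tested probes and 28.4% of the equally bright ones fell. As deposited 1 rose and 2 fell, against 43% and 2.82% of all tested probes and 8.73% and 18.5% of the equally bright ones. The group's median was then 0.07, so its sign turned. AT3G49740, a PPR protein gene, read 1.24, 1.76 and 1.05 in WT and 0.0909, 0 and 0.146 in prors1. Its log2 fold was -4.47 ± 0.44 (SE, limma adjusted p = 0.00281) over the arrays above 0, which leaves out prors1 array 2, where both columns were at 0. That fold rests on 2 prors1 arrays near the floor, and its size is uncertain. With a pseudocount of 0.1, which keeps the array, it was -3.44. Its fold was the lowest of the 60 under each of the 4 scalings, with the array at 0 left out.

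AT3G15140, an exonuclease of the ERI-1 family, which trims RNA, read 0.952, 1.61 and 1.22 in WT and 0.688, 0.803 and 0.786 in prors1. The groups did not overlap, and its log2 fold was -1.17 ± 0.25 (limma adjusted p = 0.0136), but it was not called as deposited (-0.70, adjusted p = 0.0708). AT5G19210, a DEAD-box RNA helicase, read 1.70, 2.01 and 1.69 in WT and 0.812, 1.35 and 1.15 in prors1, with a log2 fold of -1.10 ± 0.27 (limma adjusted p = 0.0237). IAA31, a member of the Aux/IAA repressors of auxin response, read 0.905, 1.34 and 1.22 in WT and 0.785, 0.548 and 0.856 in prors1, with a log2 fold of -1.15 ± 0.33 (limma adjusted p = 0.0358). Neither of these was called as deposited (adjusted p = 0.0601 and 0.0936), and they lost their calls in 4 and 5 of the 6 fits that each left out an array, those without WT array 1, WT array 3, prors1 array 1 and prors1 array 2 among them.

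The other genes of this group did not pass with quantile normalization. The PPR gene AT3G26630, described above, had a log2 fold of -0.39 ± 0.30 (limma adjusted p = 0.352) and was called lower as deposited (-0.88, adjusted p = 0.0351). AT1G12800, a protein with an S1 RNA-binding domain, read 1.33, 1.27 and 1.29 in WT and 2.0, 2.40 and 2.11 in prors1. Its arrays did not overlap, and it was called higher as deposited (0.74, limma adjusted p = 0.0373) but not with quantile normalization (0.54 ± 0.23, adjusted p = 0.112), with the sign turned under median scaling (-0.16). The PPR gene AT2G19280 read 0.859, 1.31 and 0.703 in WT and 1.32, 2.14 and 1.56 in prors1. Its lowest prors1 array lay just above its highest WT array, and its log2 fold was 0.50 ± 0.22 (limma adjusted p = 0.130), turned to -0.07 under median scaling. RAP74, a subunit of the general transcription factor TFIIF, had overlapping groups at 1.77 ± 0.28 and 1.87 ± 0.62 (SD, n = 3). So did AT1G01080, with an RNA recognition motif, at 1.5 ± 0.56 and 2.86 ± 0.81. AT1G01250, an AP2/ERF transcription factor, and AT1G61990, of the mTERF family that acts on organelle genomes, overlapped as well, at 1.02 ± 0.35 and 1.19 ± 0.13 and at 0.991 ± 0.23 and 1.09 ± 0.074.

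Genes for photosynthesis and the plastid translation and pigment machinery numbered 7, and 6 of them were also among the 60 brightest in prors1. By quantile normalization 0 rose and 1 fell, and as deposited 1 rose and 0 fell, with medians of -0.07 and 0.15. The share of all tested probes that fell by quantile normalization was 13.5%, and that of probes that rose as deposited was 43%. Among the equally bright probes these shares were 28.4% and 8.73%. NdhS, the subunit of the chloroplast NADH dehydrogenase-like complex that binds ferredoxin, read 4.13, 5.99 and 3.04 in WT and 3.87, 5.58 and 4.21 in prors1. The values overlapped widely, and the log2 fold of -0.13 ± 0.24 (limma adjusted p = 0.724) changed sign with the scaling (0.09 as deposited, 0.26 with cyclic loess). AT1G76450, related to the PsbP protein of photosystem II, read 2.98, 1.67 and 2.70 in WT and 4.99, 4.69 and 6.22 in prors1. Each prors1 array exceeded each WT array, 2.16 times on average. It was called higher as deposited (1.15, limma adjusted p = 0.0152) and with cyclic loess (1.25, adjusted p = 0.0399), but not with quantile normalization (0.92 ± 0.38, adjusted p = 0.107) or median scaling (0.25, adjusted p = 0.639).

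PSB27, a factor in assembly and repair of photosystem II, read 0.741, 2.09 and 1.28 in WT and 1.59, 2.08 and 1.45 in prors1. Its WT arrays spread widely, with a coefficient of variation of 49.5%, and the log2 fold was 0.15 ± 0.29 (limma adjusted p = 0.735), turned to -0.44 under median scaling. AT3G47650, a DnaJ-type zinc finger protein known as a chaperone of Rubisco assembly, read 1.53, 1.13 and 1.42 in WT and 0.910, 1.07 and 0.810 in prors1. The groups did not overlap, and its log2 fold was -0.95 ± 0.26 (limma adjusted p = 0.0329), but was not called as deposited or with cyclic loess (adjusted p = 0.128 and 0.0683). Its call was lost in 5 of the 6 fits that left out an array, all but the one without WT array 2. The chlorophyll pathway gene AT1G74470, geranylgeranyl reductase, had the steadiest WT values of the 60, at 1.62, 1.64 and 1.66, and 1.65, 2.04 and 1.95 in prors1. AT5G65220, plastid ribosomal protein L29, stood at 2.04 ± 0.34 and 2.26 ± 0.32, and the thylakoid lumen protein gene AT3G44020 at 1.86 ± 0.46 and 1.70 ± 0.36 (SD, n = 3). Groups overlapped in 5 of the 7 genes, all but AT1G76450 and AT3G47650. AT1G76450 lay wholly above WT and AT3G47650 wholly below, as did 46% and 4.86% of all probes and 10.9% and 30.5% of equally bright ones.

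Few of the classical photosynthesis genes could enter this ranking, since few had a probe of their own once the 6 genes were left out. Of 51 genes for photosystems, antennae and electron transport, 1 (PSB27) had one and was tested. Of 22 plastid ribosomal protein genes 5 were tested, with AT5G65220 the single member of the 60, and of 12 chlorophyll synthesis genes 2 were tested, with AT1G74470 the single member. None of these 8 passed the test (0 called by limma with quantile normalization, and 0 at an unadjusted p under 0.05). Of 16 Calvin-Benson cycle genes 1 had a probe and was too dim to be tested, and of 5 dark-induced genes 0 had a probe of their own.

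Enzymes of metabolism and the cell wall formed the largest group with a role, 12 genes, of which 9 had overlapping arrays. Wholly above WT lay 2 and wholly below 1, against 46% and 4.86% of all probes and 10.9% and 30.5% of equally bright ones. By quantile normalization 0 rose and 1 fell, with a median log2 fold of -0.11. Of all tested probes 12.8% rose and 13.5% fell, and of the equally bright ones 8% and 28.4%. As deposited 1 rose and 1 fell, against 43% and 2.82% of all tested probes and 8.73% and 18.5% of the equally bright ones. Cyclic loess called 0 with a median of 0.05, against 24.4% called of all tested probes and 29.8% of the equally bright ones. Median scaling called 0 higher and 7 lower, where 17.7% of all tested probes and 69.5% of the equally bright ones were lower. The brightest, AT4G31530, had a log2 fold of 0.64 ± 0.21 (limma adjusted p = 0.0549), and of 0.10 as deposited (adjusted p = 0.778). It was called higher with a pseudocount of 0.1 (0.64, limma adjusted p = 0.0205) and with trend and robust (adjusted p = 0.00863). It also passed with separate columns (limma adjusted p = 0.000603), but that fit counts repeat readings as samples, so its p-value overstates the evidence. Median scaling called it lower (-0.80, limma adjusted p = 0.0415), so its direction rests on the scaling. For AT5G38360 it was -0.64 ± 0.27 (limma adjusted p = 0.109), and it was called lower as deposited (-1.04, adjusted p = 0.0235). AT1G02020, of the nitroreductase family, read 2.04, 5.97 and 2.08 in WT and 1.88, 1.99 and 2.57 in prors1. A single high WT array carried its rank. AT3G03890, of an FMN-binding family, likewise read 0.873, 3.45 and 1.68 in WT and 0.611, 1.24 and 1.29 in prors1, with a coefficient of variation of 65.9% in WT. Their log2 folds of -0.68 ± 0.38 and -1.18 ± 0.50 did not pass (limma adjusted p = 0.218 and 0.111).

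AT4G18180, of the pectin lyase-like family that acts on cell wall pectin, read 1.52, 1.10 and 1.23 in WT and 2.0, 1.94 and 2.29 in prors1. With no overlap it was called higher as deposited (0.74, limma adjusted p = 0.0470), not with quantile normalization (0.52 ± 0.29, adjusted p = 0.216), and its sign turned under median scaling (-0.16). AT1G11730, of the galactosyltransferase family, had a log2 fold of -0.86 ± 0.25 (limma adjusted p = 0.0371). Its arrays overlapped as deposited (0.875, 1.25 and 0.734 against 0.664, 0.771 and 0.815). As deposited its log2 fold was -0.31 (limma adjusted p = 0.396), and its call was lost in 5 of the 6 fits that left out an array, all but the one without prors1 array 3. ATSPS4F, a sucrose-phosphate synthase, which makes the precursor of sucrose, read 0.968, 1.51 and 0.726 in WT and 0.807, 0.941 and 0.876 in prors1, with the prors1 arrays inside the WT range. AT3G06200, a guanylate kinase, read 3.15, 2.17 and 1.64 in WT and 3.63, 3.68 and 3.53 in prors1. It was the steadiest gene of the 60 in prors1, with a coefficient of variation of 2.03%, and each of those arrays lay above each WT array. AT5G52810, of the ornithine cyclodeaminase family and linked to pipecolic acid synthesis, read 1.63, 4.06 and 3.30 in WT and 3.65, 7.13 and 4.41 in prors1, with overlap. Overlap also held for the pfkB-type kinase AT1G06730 (3.37 ± 1.4 in WT and 2.75 ± 0.91 in prors1), the haloacid dehalogenase-like AT3G17550 (1.84 ± 0.87 and 2.32 ± 0.39) and the choline monooxygenase-like AT4G29890 (1.07 ± 0.40 and 1.93 ± 0.43).

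Membrane, transport and trafficking genes numbered 5, of which 0 rose and 1 fell by quantile normalization and 0 were called as deposited. Of all tested probes 26.3% and 45.8% were called, and of the equally bright ones 36.4% and 27.3%. Median scaling called 0 higher and 4 lower, where 17.7% of all tested probes and 69.5% of the equally bright ones were lower. PRA1.B6, a prenylated RAB acceptor of the vesicle traffic system, read 2.29, 2.34 and 7.23 in WT and 1.27, 2.06 and 2.28 in prors1. WT array 3 alone made it the 11th brightest gene, with the largest coefficient of variation in WT of the 60 (71.8%), and its log2 fold was -1.08 ± 0.51 (limma adjusted p = 0.146). Its relative PRA1.B3 read 0.686, 1.23 and 0.944 in WT and 0.595, 0.639 and 0.602 in prors1. Here the prors1 arrays were nearly equal and all below WT, and the log2 fold was -1.19 ± 0.24 (limma adjusted p = 0.0124). As deposited the gene was not called (-0.60, adjusted p = 0.118). AT4G39690, the Mic60 subunit of the mitochondrial inner membrane organising system, read 2.59, 3.6 and 2.45 in WT and 1.64, 2.79 and 2.68 in prors1, with overlap and a log2 fold of -0.53 ± 0.24 (limma adjusted p = 0.143). AT2G38550, of a family that exports fatty acids from plastids, and AT5G14910, with a heavy-metal-associated domain, overlapped too, at 1.80 ± 0.20 and 1.37 ± 0.26 and at 1.30 ± 0.46 and 1.37 ± 0.21.

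Repeat-domain proteins are encoded by 5 genes, of which 1 rose and 2 fell by quantile normalization. Of all tested probes 12.8% rose and 13.5% fell, and of the equally bright ones 8% and 28.4%. Median scaling called 0 higher and 4 lower, where 17.7% of all tested probes and 69.5% of the equally bright ones were lower. AT1G51350, of the armadillo-repeat family, was the only one of the 60 called higher with quantile normalization. It read 1.93, 2.01 and 0.980 in WT and 3.67, 6.29 and 4.68 in prors1, 2.98 times higher on average, and moved from rank 35 to rank 12. All prors1 arrays lay above all WT arrays, and the log2 fold was 1.39 ± 0.26 (limma adjusted p = 0.0102). AT3G06570 had a log2 fold of -0.99 ± 0.21 (limma adjusted p = 0.0137), and of -1.07 as deposited. AT3G16760, a tetratricopeptide repeat protein, read 0.787, 1.48 and 1.14 in WT and 0.526, 0.574 and 0.576 in prors1. Its log2 fold was -1.53 ± 0.26 (limma adjusted p = 0.00685), and -0.97 as deposited. AT3G09080, a WD40-repeat protein, read 3.75, 4.07 and 2.69 in WT and 1.75, 3.10 and 2.78 in prors1, with overlap and a log2 fold of -0.70 ± 0.25 (limma adjusted p = 0.0744). The tetratricopeptide repeat gene AT3G26580 was lower on each prors1 array than on any WT array, at 2.01 ± 0.22 in WT and 1.30 ± 0.28 in prors1. So were 4.86% of all probes and 30.5% of the equally bright ones. Its log2 fold of -0.92 ± 0.30 did not pass (limma adjusted p = 0.0570). It was not called as deposited or with cyclic loess (adjusted p = 0.0883 and 0.0596), but was called lower under median scaling (-1.54, adjusted p = 0.00766).

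The 2 signalling genes, CML30, a calmodulin-like calcium sensor, and XERICO, a RING-finger protein linked to abscisic acid, did not pass under any of the 4 scalings. XERICO read 1.18, 1.2 and 0.849 in WT and 1.48, 2.63 and 1.61 in prors1, without overlap. CML30 read 1.12, 1.5 and 0.866 in WT and 1.05, 1.36 and 1.5 in prors1, with overlap.

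The last 18 genes were put in no role group, although some may have a described function, RNA handling included. Among them 0 rose and 5 fell by quantile normalization. As deposited 0 rose and 2 fell, against 43% and 2.82% of all tested probes and 8.73% and 18.5% of the equally bright ones. Of all tested probes 13.5% fell by quantile normalization, and of the equally bright ones 28.4%. AT4G22830 had a log2 fold of -0.69 ± 0.22 (limma adjusted p = 0.0507), and -0.91 as deposited (adjusted p = 0.0227). AT2G27290 had 0.81 ± 0.27 (limma adjusted p = 0.0592), was called higher with cyclic loess (1.02, adjusted p = 0.0247) and turned to -0.41 under median scaling. AT5G36470 read 3.85, 3.36 and 3.67 in WT and 1.45, 2.59 and 1.45 in prors1, with a log2 fold of -1.24 ± 0.26 (limma adjusted p = 0.0133). Its tight WT arrays lay above each prors1 array.

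CCL, a gene under control of the circadian clock in Arabidopsis, read 4.39, 6.19 and 4.6 in WT and 3.11, 5.32 and 3.58 in prors1, with overlap and a log2 fold of -0.55 ± 0.21 (limma adjusted p = 0.0891). AT5G50350 and AT1G73120 also overlapped, at 4.27 ± 0.87 and 3.94 ± 1.3 and at 4.21 ± 0.65 and 5.16 ± 1.1 (SD, n = 3). Their log2 folds were -0.33 ± 0.29 and 0.07 ± 0.20 (limma adjusted p = 0.434 and 0.831). The other falls were those of AT1G32730, AT3G09250, AT2G36480 and AT2G25640. Their log2 folds were -1.21 ± 0.32, -1.11 ± 0.26, -0.94 ± 0.26 and -1.0 ± 0.23 (limma adjusted p = 0.0294, 0.0199, 0.0336 and 0.0198). None of these 4 was called as deposited, and each lost its call in 2 to 5 of the 6 fits that left out an array. Without prors1 array 2 none of the 4 was called. The remaining genes of this group that overlapped between WT and prors1 included AT3G52070 (2.71 ± 1.0 and 3.70 ± 1.2), AT5G11010 (2.85 ± 0.53 and 2.49 ± 0.56), AT2G46300 (2.42 ± 1.1 and 2.62 ± 0.20) and AT1G07970 (1.81 ± 0.52 and 2.60 ± 0.77). AT2G46630, AT1G21500 and AT5G55570 overlapped as well, with WT means of 1.45, 1.42 and 1.27 and prors1 means of 1.49, 1.30 and 1.75.

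The 60 genes were scattered over the genome. Chromosome 3 held 16 of them (26.7%, against 18.3% of the other named genes) and chromosome 1 held 15 (25% against 25%), with 9, 9 and 11 on chromosomes 2, 4 and 5. No member was the direct neighbour of another among protein-coding genes (0 pairs). The median coefficient of variation between arrays was 24.2% in WT and 20.7% in prors1, against 29.5% and 21.8% for the other named genes. The 60 were picked by high WT values and the other named genes were dimmer, so these values are a description.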

How the data were processed

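Expression was measured in 12 samples, 6 WT and 6 prors1, grouped by their titles. The authors deposited 1 intensity per probe and column, linear and bounded by 0 and 100 as the values show. Scanner, background correction and scaling are not named in the labels. All 12 columns matched a sample, and 0 were left over. Of 3439 probes, 692 name 1 gene, 870 several and 1877 none; 690 of the 692 matched the TAIR10.1 gene table.

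Values of 0 were set missing, the rest log2 transformed, quantile normalized over the 12 columns and averaged over columns 1 and 2, 3 and 4, and 5 and 6. The 2908 probes with at least 4 of 6 columns above 0 in each group were fitted with limma 3.58.1 (R 4.3.3), lmFit and eBayes, group as the only term, two-sided. Adjusted p is by Benjamini-Hochberg over the 2908 probes, called under 0.05, and each fold (prors1 over WT) has limma's moderated SE. Array numbers were not taken as pairs in the main fit. Deviations of same-numbered arrays correlated at 0.184, 0.0801 and 0.231, and those of differently numbered arrays at -0.172 to -0.0251. Whether same-numbered arrays shared an effect was not tested. A fit with the array number as a block called 19 of the 60. The number of arrays limits the precision.

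The members, role groups and lists were chosen with earlier results of these data known. Named by rule were the 12 brightest genes, up to 8 rises and 8 falls, the 3 genes on either side of the last rank, the 2 brightest of each role group with at least 5 genes, genes listed at 0 or at 100, and the 4 with the most variable WT values. Other genes were named after their values were seen. Alternatives covered scaling, pseudocount, filters, values at 100, columns as samples, a block for array number, limma settings, each array left out and the choice of genes. Promoter and protein features were not analysed here.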

Additional observations from a re-analysis of the deposited data

How the results depend on the processing

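The count of genes called among the 60, 15 as reported (1 higher, 14 lower), stayed within 1.5 times as deposited (11), with cyclic loess (14), both filters (17 and 15), values of 100 set missing (16) and the array number as a replicate block (19; 840 probes in all). It moved to 34 with median scaling, 24 with the pseudocount of 0.1, 34 with 6 columns as separate samples, 24 with eBayes trend and robust, 3 with 30 genes and 29 with 120. Genes higher and lower numbered 4 and 7 as deposited, 0 and 34 with median scaling, 3 and 11 with cyclic loess, 3 and 21 with the pseudocount or with trend and robust, 9 and 25 with separate columns, 3 and 16 with the block, 2 and 15 with 6 of 6 columns required, 0 and 3 with 30 genes and 7 and 22 with 120. By choice of genes they were 9 and 6 (all 12 columns), 12 and 2 (prors1 columns), 3 and 7 (WT columns 1 and 2) and 2 and 13 (WT median). The count of all probes, 764, moved to 1332 as deposited and 1443 with separate columns. The median log2 fold of -0.32 became -0.13 as deposited, -1.03 with median scaling, -0.17 with cyclic loess, 0.0078 with all 12 columns, 0.32 with prors1 columns and -0.13 with WT columns 1 and 2. The cause was not tested; separate columns raise the degrees of freedom, and fewer or more genes change the count, by construction.

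With 1 array left out, 7 to 13 of the 60 were called (1 higher in each, 6 to 12 lower), lowest without prors1 array 2 (7), WT array 3 (8) and prors1 array 1 (9), and lower calls numbered 9 without WT array 1. All probes called ran from 394 to 570, lowest without prors1 array 2 (394), WT array 3 (450), prors1 array 1 (458) and WT array 1 (486), and the median fold from -0.33 to -0.25. AT3G06570, AT5G36470, AT1G51350, AT3G49740, AT3G15140, AT3G16760 and PRA1.B3 were called in each of these fits. Among the 60 brightest in prors1 stood 43 of the 60, 44 by the median, 43 after quantile normalization and 41 to 46 with an array left out. All 15 calls remained with the replicate block, the pseudocount, separate columns, and trend and robust, 14 under median scaling, 12 with cyclic loess and 5 as deposited. Of the 37 named genes' folds, these turned: under median scaling AT4G31530 (-0.80), AT2G27290 (-0.41), AT1G73120 (-0.62), AT2G19280 (-0.066), PSB27 (-0.44), AT1G12800 (-0.16) and AT4G18180 (-0.16); as deposited NdhS (0.0924) and AT4G07670 (0.30); with cyclic loess NdhS (0.26) and AT4G07670 (0.0053). With an array left out the ranges were -0.30 to 0.0211 for NdhS, -0.38 to 0.0563 for AT4G07670 and -0.13 to 0.36 for PSB27. Ranking rests on probe brightness, and the floor at 0 limits AT3G49740.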
